A study of Mus musculus with 17 samples.

Results

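The genes described here are 33 members of the hypoxia response and of glycolysis, all found by symbol among the 23719 entries of a gene count table. The members were chosen because Ankrd37, a target of the hypoxia-inducible factors (HIFs), was among the strongest changes in these data, so the values of Ankrd37 are given as a description without a test. RNA was sequenced from colon explants of 17 male C57BL/6 mice aged 32 to 34 weeks. The 9 Control mice drank water, and the 8 GWI mice, a model of Gulf War illness, had pyridostigmine bromide (PB) in their drinking water for 7 days at 2 mg/kg, followed by 21 days of recovery. PB blocks the enzyme acetylcholinesterase reversibly. Tissue was taken at day 30. Each column of the table was taken as 1 mouse, since the labels give each its own replicate number but do not name the animal. The total count per mouse was between 16293537 and 20741212. Levels are given as CPM, counts relative to library size, with sizes scaled by the trimmed mean of M-values (TMM). All 33 members passed the filter on low counts, with 25 counts (Adm) as the lowest value of any member in any mouse.

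Cells answer a lack of oxygen through HIFs, which pair an oxygen-regulated alpha subunit (Hif1a or Epas1) with the stable beta subunit Arnt. When oxygen is present, prolyl hydroxylases of the Egln family mark the alpha subunits for degradation, and when it is scarce the pair binds short DNA motifs and raises the transcription of genes for glucose uptake, glycolysis, vessel growth and mitochondrial turnover. The colon epithelium borders an almost oxygen-free lumen and has low oxygen at its surface in health, and HIF activity there is known to maintain the barrier.

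A pair of Control libraries stood apart from the rest for many members. Control replicate 1 had the highest level in its group for 26 of the 33 members, and the highest level of all 17 mice for 21. Over all tested genes it had the highest level for 13.3%. Control replicate 9 had the lowest level of all 17 mice for 16 members, 11 of them among the 14 glycolytic enzymes, and it held the lowest level for 23.1% of all tested genes and the highest for 25.4%. Its 10 most abundant genes took 23.1% of its counts and its TMM factor was 0.799, the lowest of the 17. The summed level of the 14 glycolytic enzymes was 12028 CPM in Control replicate 1 and 4039 CPM in Control replicate 9, while the other Control mice lay between 5091 and 8810 CPM and the GWI mice between 6687 and 9202 CPM. Where leaving out either library changed a call, the value without it is given.

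A gene was called at a Benjamini-Hochberg adjusted p under 0.05 in edgeR's quasi-likelihood test, with the adjustment over all 14146 tested genes. By this rule 5 of the 33 members were called (15.2%), while 26.8% of all tested genes were called. Of the members, 2 were called higher in GWI colons (13.4% of all tested genes) and 3 lower (13.5% of all tested genes). Because the members were chosen on the same contrast, nothing is read from these counts. The 2 called higher were Epas1 and Arnt, and the 3 lower were Bnip3, Egln3 and Ankrd37. As the gene that chose the members, Ankrd37 stands in each count of members called lower without being read as a result, which leaves 2 others here. The median log2 fold change was 0.13 over the members and -0.06 over all tested genes. The member median was 0.03 with upper-quartile factors and 0.48 with the tissue covariate described below, the lowest and highest of the alternatives. With TMM scaling, all mice and no covariate, 21 members and 6340 tested genes had a positive value.

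The number of members called higher depended on Control replicate 1. Without it 11 members were called higher, against 17.9% of all tested genes, and the same 3 were called lower, against 16.3% of all tested genes. The additional 9 were Vegfa, Mxi1, Slc2a1, Pfkfb4, Hk1, Hk2, Pfkl, Pfkp and Pgam1. A fit without both Control replicates 1 and 9, chosen after their levels were seen, called 12 members higher and 4 lower, against 19.7% and 19.6% of all tested genes. Some mice share the first part of their sample name, which the labels do not define. In a limma-voom fit that took this part as a random block, with an estimated correlation of 0.621 within it, 0 members were called higher and 2 lower, of which 1 was Bnip3 and the other Ankrd37, against 2.66% and 0.664% of all tested genes. The tool and the block changed together in this fit, and what each contributed cannot be told apart. Counts by the other tools and scalings stand with the alternatives in the closing section.

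**Figure D1:**
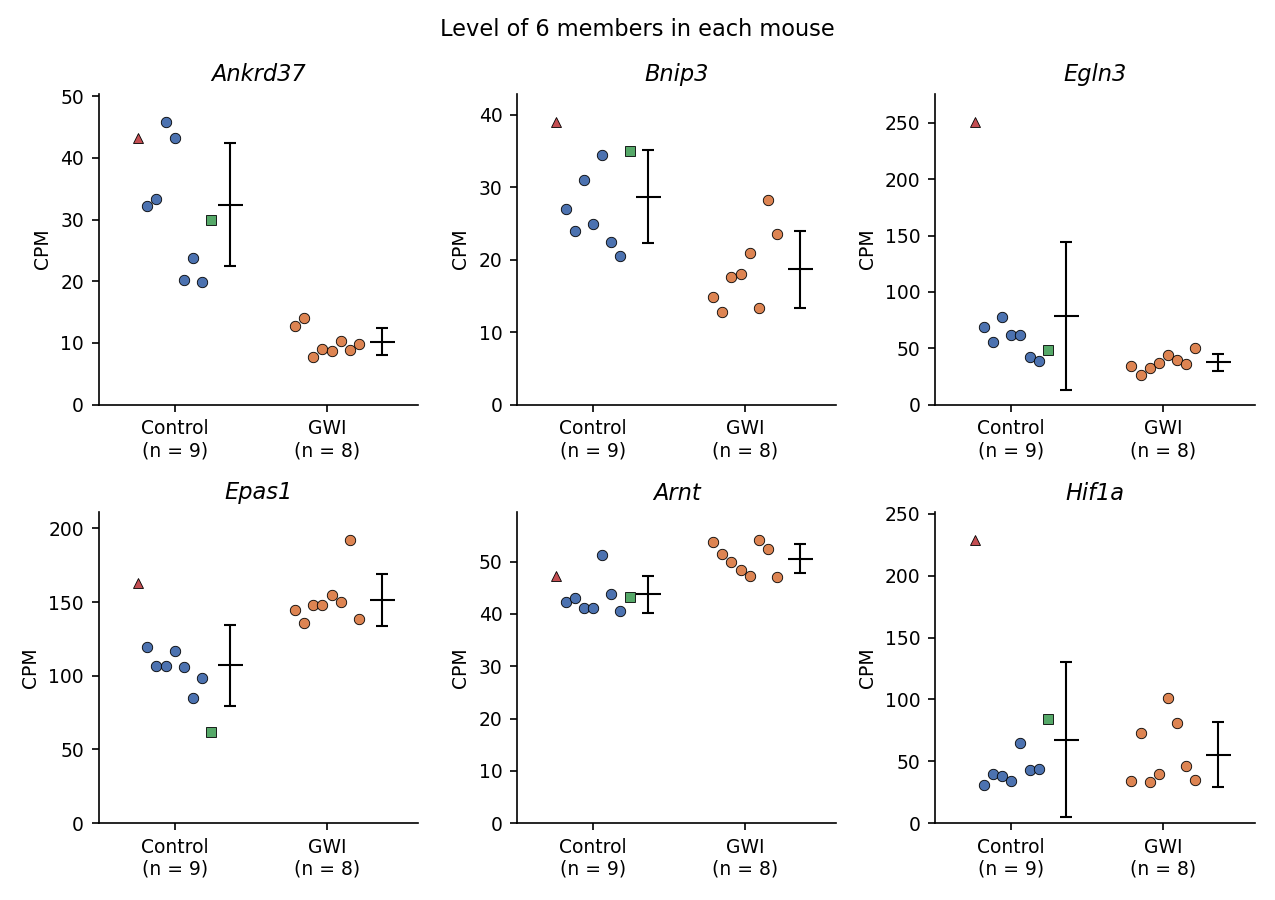
Level of Ankrd37, Bnip3, Egln3, Epas1, Arnt and Hif1a in each of the 17 mice, in CPM on a linear axis, with 1 symbol for each mouse, Control replicate 1 as a triangle and Control replicate 9 as a square, and bars for the mean ± SD of each group. The Control and GWI mice do not overlap for Ankrd37, while a single Control mouse is far above all others for Egln3 and Hif1a.

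Ankrd37 encodes a small ankyrin repeat protein whose transcription is directly induced by HIF. Its level in the Control mice was 19.8 CPM at the lowest, 32.3 CPM at the median and 45.9 CPM at the highest, and in the GWI mice 7.78, 9.44 and 14.1 CPM. Every GWI mouse was below every Control mouse, with Control replicate 8 as the lowest of the Control mice and GWI replicate 2 as the highest of the GWI mice. GWI against Control, the log2 fold change was -1.67 (SE 0.186). Ankrd37 was the only member whose groups did not overlap, which held for 2.35% of all tested genes (333 of 14146), and since the members were chosen on Ankrd37 nothing is read from this. It was -1.60 without Control replicate 1 and -1.67 without Control replicate 9. Ankrd37 lies on the minus strand of chromosome 8 in the mouse build GRCm38 (chr8:45996902-46005707). Its exons overlap those of Lrp2bp over 349 bases (22.7% of its exon length) and those of Ufsp2 over 57 bases (3.70%), both on the opposite strand. The sources used here do not state whether reads were counted by strand, so in these stretches reads of the genes cannot be told apart. Lrp2bp was at a median of 0.882 CPM in Control and 0.613 CPM in GWI mice (log2 fold change -0.49, SE 0.258, adjusted p = 0.162). Ufsp2 was at a median of 40 CPM in Control and 39.9 CPM in GWI mice (log2 fold change -0.14, SE 0.144, adjusted p = 0.475).

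Among the oxygen sensors and their partners, the alpha subunit gene Epas1 rose. Epas1 encodes HIF-2α, which is known for its part in iron uptake and inflammation of the intestine. Its level was 62.2, 107 and 163 CPM at the lowest, median and highest Control mouse, and 136, 148 and 192 CPM in the GWI mice. The 8 GWI mice were all above 8 of the 9 Control mice, and only Control replicate 1 reached into the GWI range. This gave a log2 fold change of 0.50 (SE 0.137, adjusted p = 0.0139), and it was 0.60 (adjusted p = 0.00136) without Control replicate 1. In the limma-voom fit with the random block the adjusted p was 0.0948, and over all alternatives it lay between 0.000138 and 0.0948.

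Arnt, the beta subunit that HIF-1α and HIF-2α share, rose by a smaller amount. Its Control levels were 40.5 CPM at the lowest, 43.0 CPM at the median and 51.2 CPM at the highest, and its GWI levels were 47.0, 50.7 and 54.1 CPM. The groups overlapped through Control replicates 1 and 6, and 4 GWI mice were above all Control mice. Arnt had a log2 fold change of 0.21 (SE 0.0643, adjusted p = 0.0239). This call was lost with upper-quartile factors (0.11, adjusted p = 0.170), with library size alone (0.19, adjusted p = 0.0960), without a filter on low counts (0.21, adjusted p = 0.0513), in the limma-voom fit with the random block (0.20, adjusted p = 0.164) and without GWI replicate 6 (0.19, adjusted p = 0.0523). Leaving out any of the remaining 16 mice kept it. Over all alternatives its adjusted p lay between 0.000278 and 0.170.

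Hif1a, the other alpha subunit gene, did not pass the test. Its lowest, median and highest levels were 31.1, 42.8 and 229 CPM in Control mice and 33, 42.9 and 101 CPM in GWI mice. The highest value belonged to Control replicate 1, and the next Control mouse, replicate 9, was at 84.1 CPM. Among the GWI mice, replicates 2, 5 and 6 were above the other 5. The log2 fold change was -0.28 (SE 0.387, adjusted p = 0.596) and turned to 0.24 (SE 0.261, adjusted p = 0.496) when Control replicate 1 was left out, so no direction can be given.

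Egln3, a prolyl hydroxylase gene that is itself a strong HIF target, fell in GWI colons. Control levels were 39.1, 61.8 and 251 CPM at the lowest, median and highest mouse, and GWI levels were 26.6, 36.3 and 50.4 CPM. Of the GWI mice 5 were below every Control mouse, and the other 3 overlapped with Control replicates 7, 8 and 9. The log2 fold change was -1.07 (SE 0.313, adjusted p = 0.0194), and -0.60 (SE 0.151, adjusted p = 0.00614) without Control replicate 1, whose Egln3 level was over 3 times that of the next mouse (78.2 CPM). The call was lost in the limma-voom fit with the random block (-0.92, adjusted p = 0.114) and with the tissue covariate described below (-0.29, adjusted p = 0.577). It was also lost with the replicate block described in the closing section. Over all alternatives the adjusted p lay between 0.000144 and 0.577. Egln1, the main hydroxylase of the alpha subunits in most tissues, was at a median of 68.3 CPM in Control and 65.2 CPM in GWI mice (log2 fold change -0.16, SE 0.120, adjusted p = 0.326, and -0.06 without Control replicate 1).

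Bnip3, a mitochondrial protein gene that acts in the removal of mitochondria, was the other HIF target called lower. Its Control levels were 20.5, 27.1 and 39.0 CPM at the lowest, median and highest mouse, and its GWI levels were 12.7, 17.8 and 28.3 CPM. The groups overlapped, with 5 GWI mice below all Control mice and GWI replicate 7 above the Control median. Bnip3 had a log2 fold change of -0.62 (SE 0.169, adjusted p = 0.0135), and it stayed called when any of the 17 mice was left out, with adjusted p between 0.00760 and 0.0303. It was lost with the tissue covariate (adjusted p = 0.131) and with the replicate block described in the closing section. Over all alternatives the adjusted p lay between 0.00125 and 0.131. An antisense gene overlaps 22.3% of the Bnip3 exon length, and 9.41% of the 100-base windows of its longest transcript occur in other genes, so part of its level is uncertain.

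The remaining 8 HIF targets did not pass edgeR's test with all mice, TMM scaling and no covariate. They were Vegfa, the main vessel growth factor, Adm, the vasodilator adrenomedullin, Ndrg1, a gene induced by stress and differentiation, the collagen prolyl 4-hydroxylase subunits P4ha1 and P4ha2, Ddit4, an inhibitor of the growth kinase complex mTORC1, and the transcriptional repressors Mxi1 and Bhlhe40. Their log2 fold changes were between -0.19 (P4ha2) and 0.36 (Bhlhe40), with adjusted p between 0.0610 (Mxi1) and 0.990 (P4ha1). Vegfa shows how far Control replicate 1 entered these values. Its lowest, median and highest levels were 33.1, 40 and 123 CPM in Control mice and 42.7, 56.1 and 73.1 CPM in GWI mice. Control replicate 1 was above all GWI mice, and the next Control mouse was at 70.4 CPM. Its log2 fold change was 0.17 (SE 0.236, adjusted p = 0.599) with all mice and 0.46 (SE 0.146, adjusted p = 0.0221) without Control replicate 1. Mxi1, which antagonizes Myc, was between 82.9 and 158 CPM in Control mice and between 101 and 174 CPM in GWI mice (log2 fold change 0.35, SE 0.135), and was called without Control replicate 1 (0.43, adjusted p = 0.0144). Mxi1 was also called without Control replicate 2, without GWI replicate 1 and by limma-voom with quality weights. Adm had few counts, with 1.43 to 12.6 CPM in Control and 2.24 to 8.77 CPM in GWI mice, and its log2 fold change of -0.10 (SE 0.402) became 0.36 (SE 0.311) without Control replicate 1.

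Glucose uptake and the control of glycolytic flux were represented by 4 members. Of these, 0 were called by edgeR with all mice, TMM scaling and no covariate, while 26.8% of all tested genes were. In that fit 0 of the 4 had an unadjusted p under 0.05. Without Control replicate 1, edgeR called 2 of the 4 higher, against 17.9% of all tested genes. With so few members nothing is read from these counts. Pdk1 was called lower with the tissue covariate described below, and limma-voom with quality weights called Slc2a1 and Pfkfb4 higher. Slc2a1, the glucose transporter GLUT1, was at 109, 163 and 445 CPM in the lowest, median and highest Control mouse and at 160, 219 and 284 CPM in the GWI mice. Control replicate 1 was again above every GWI mouse, and 3 GWI mice were above all of the other Control mice. The log2 fold change was 0.29 (SE 0.243, adjusted p = 0.374), and 0.58 (SE 0.162, adjusted p = 0.0116) without Control replicate 1.

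Pfkfb3 and Pfkfb4 encode bifunctional enzymes that set the level of a fructose bisphosphate, the strongest activator of phosphofructokinase. Pfkfb4 lay between 17.2 and 66.4 CPM in Control mice, where replicate 1 was the highest and the next was at 29.3 CPM, and between 25.7 and 61.2 CPM in GWI mice. Its log2 fold change was 0.39 (SE 0.240, adjusted p = 0.223), and 0.67 (SE 0.156, adjusted p = 0.00361) without Control replicate 1, when 7 of the 8 GWI mice were above all remaining Control mice. Its lowest value when each mouse was left out in turn was 0.25, and the highest adjusted p, without GWI replicate 5, was 0.430. Pfkfb3 was between 4.67 and 22.9 CPM in Control and between 7.57 and 48.8 CPM in GWI mice (log2 fold change 0.70, SE 0.349, adjusted p = 0.135), with GWI replicate 7 highest, and 0.36 (SE 0.304, adjusted p = 0.398) without that mouse. Pdk1, a kinase that inhibits pyruvate dehydrogenase and so keeps pyruvate out of the mitochondria, was between 57.4 and 122 CPM in Control and between 56.6 and 77.5 CPM in GWI mice (log2 fold change -0.22, SE 0.135, adjusted p = 0.217). Its highest value was that of Control replicate 9, and without it the log2 fold change was -0.10.

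**Figure D2:**
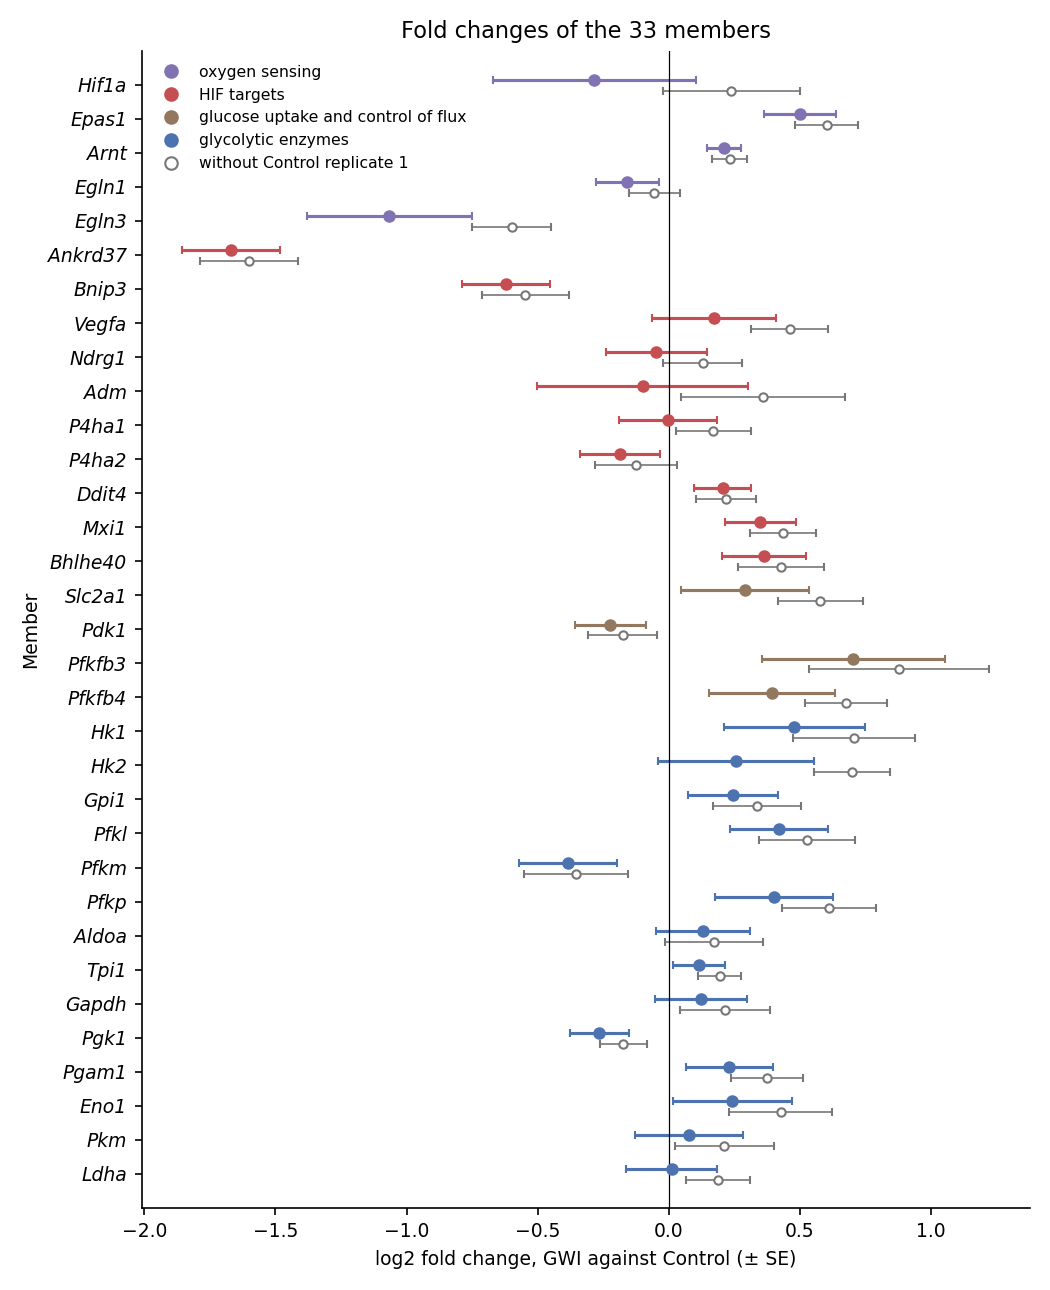
Log2 fold change of GWI against Control with its SE for the 33 members, filled points with all 17 mice and coloured by role, open points without Control replicate 1. Ankrd37 is farthest from 0 at -1.67, and leaving out the 1 Control mouse moves Hk2 from 0.26 to 0.70.

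With TMM scaling and no covariate, none of the 14 glycolytic enzymes was called by edgeR with all 17 mice, while 26.8% of all tested genes were. A positive log2 fold change was found for 12 of the 14, and for 6340 of all 14146 tested genes. The values of the 14 were between -0.38 (Pfkm) and 0.48 (Hk1), with a median of 0.18. Without Control replicate 1, edgeR called 5 of the 14 higher, against 17.9% of all tested genes. Over the 33 members, 4 that were not called had an unadjusted p under 0.05, and Pgk1 was called lower by the DESeq2 Wald test (adjusted p = 0.0485), by edgeR with upper-quartile factors (0.0184) and by limma-voom with quality weights (0.00985). The last of these called 6 of the 14 (42.9%, against 57.2% of all tested genes), and edgeR with a tissue covariate, described below, called 5 (35.7%, against 31.8% of all tested genes).

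Hexokinases trap glucose in the cell by phosphorylation. Hk1 was at 48.7, 184 and 398 CPM in the lowest, median and highest Control mouse and at 215, 259 and 305 CPM in the GWI mice. Control replicate 9 was the lowest and Control replicate 1 the highest, so the Control range enclosed all GWI mice. Its log2 fold change was 0.48 (SE 0.269, adjusted p = 0.186), 0.71 (SE 0.232, adjusted p = 0.0260) without replicate 1 and 0.36 (SE 0.207, adjusted p = 0.190) without replicate 9. Hk2, the isoenzyme most strongly tied to HIF, was at 75.0, 108 and 413 CPM in Control and at 122, 151 and 249 CPM in GWI mice. Without Control replicate 1 its highest Control level was 126 CPM, and 7 of the 8 GWI mice were above it. Its log2 fold change was 0.26 (SE 0.297, adjusted p = 0.528) with all mice and 0.70 (SE 0.146, adjusted p = 0.00185) without that mouse. When each mouse was left out in turn, the lowest value was 0.14, and the highest adjusted p was 0.750, without GWI replicate 5.

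Phosphofructokinase, which commits sugar to glycolysis, has the subunits Pfkl, Pfkm and Pfkp, named for liver, muscle and platelet. Pfkl was at 110, 270 and 395 CPM in the lowest, median and highest Control mouse and at 264, 325 and 440 CPM in the GWI mice (log2 fold change 0.42, SE 0.188, adjusted p = 0.101). Pfkp was at 78.4, 145 and 337 CPM in Control and at 148, 222 and 273 CPM in GWI mice (log2 fold change 0.40, SE 0.225, adjusted p = 0.186). For both, replicates 1 and 9 were the highest and lowest Control mice, and both were called higher without replicate 1, at 0.53 (adjusted p = 0.0345) for Pfkl and 0.61 (adjusted p = 0.0154) for Pfkp. Pfkm was at 13.6, 35.2 and 41.8 CPM in Control and at 19.8, 24.0 and 29.3 CPM in GWI mice (log2 fold change -0.38, SE 0.186, adjusted p = 0.128). Of the Control mice, replicates 7, 8 and 9 lay in or below the GWI range and the other 6 above it, and without replicate 9 Pfkm was called lower (log2 fold change -0.47, adjusted p = 0.0195).

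The enzymes of the other steps of the pathway were not called by edgeR with all mice, TMM scaling and no covariate. Gapdh, often used as a reference gene, was at 457, 989 and 1431 CPM in the lowest, median and highest Control mouse and at 925, 1066 and 1186 CPM in the GWI mice. The GWI mice lay inside the Control range, which Control replicates 9 and 1 set, and the log2 fold change was 0.12 (SE 0.176, adjusted p = 0.613). It was 0.04 without Control replicate 9, and -0.02 in the limma-voom fit with sample quality weights. Ldha, the lactate dehydrogenase subunit that forms lactate, had a log2 fold change of 0.01 (SE 0.173, adjusted p = 0.969), or 0.19 without Control replicate 1, Pkm, the pyruvate kinase of most tissues, of 0.08 (SE 0.205, adjusted p = 0.802), and Pgk1, a phosphoglycerate kinase, of -0.26 (SE 0.112, adjusted p = 0.0844). Gpi1, Aldoa, Tpi1, Pgam1 and Eno1, the enzymes for further steps between glucose phosphate and pyruvate, had log2 fold changes between 0.12 and 0.24, and Pgam1 was called higher without Control replicate 1 (0.37, adjusted p = 0.0410). With all mice, limma-voom with quality weights also called Pgam1 higher and Pgk1 lower. The spread between mice was wider in Control, with an SD of 312 CPM for Gapdh against 80.5 CPM in GWI mice. Some of these genes share sequence with copies elsewhere in the genome, and of the 100-base windows of the longest transcript 78.0% for Gapdh, 67.0% for Pgk1, 59.0% for Eno1 and 39.7% for Pgam1 occur in other genes. The authors counted unique hits, so the levels of these 4 genes are uncertain.

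Shares within enzyme families were computed in each mouse, per kilobase, since they do not depend on the scaling of the library, and 8 shares were tested by an exact two-sided permutation test over all splits into 9 and 8 mice. This test takes the mice as independent, and the shares were not tested with the first part of the sample name or with a tissue covariate. Egln3 made up 55.1% ± 8.51 (SD, n = 9) of the summed Egln1 and Egln3 level in Control and 43.4% ± 3.14 (SD, n = 8) in GWI mice (exact permutation p = 0.000370, adjusted over the 8 shares p = 0.00296). The Control mice ran from 45.7% to 75.2% and the GWI mice from 38.1% to 47.5%, and only Control replicate 8 fell inside the GWI range. The difference was -11.7 percentage points, and -9.15 points without Control replicate 1, with the exact permutation test still passed (adjusted p = 0.00186).

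Pfkm made up 15.7% ± 2.93 (SD, n = 9) of phosphofructokinase in Control and 9.72% ± 2.19 (SD, n = 8) in GWI mice (exact permutation p = 0.000740, adjusted p = 0.00296). Its GWI range of 6.84% to 12.6% overlapped with Control replicates 1 and 8 only. Without division by exon length the difference was -2.88 points instead of -5.98 (exact permutation adjusted p = 0.00296), and that of Pfkl was 1.54 points instead of 4.33. The size of these differences and the level of each share thus depend on the lengths used. These lengths were 3340 bases for Pfkm, 6675 for Pfkl and 13401 for Pfkp. Another gene on the same strand, Gm26513, overlaps 10.2% of the Pfkm exon length. Pfkl held the largest part of the family in both groups, with 64.1% ± 2.84 in Control and 68.4% ± 6.20 in GWI mice (exact permutation adjusted p = 0.154). The other 5 shares did not pass either. The Epas1 share of the alpha subunits was 66.1% ± 13.9 in Control and 75.0% ± 8.69 in GWI mice (exact permutation adjusted p = 0.235), with Control replicates 1 and 9 lowest at 42.9% and 43.8%. The P4ha2 share was 20.0% ± 2.39 and 17.8% ± 1.99 (exact permutation adjusted p = 0.154), and passed without Control replicate 1 (0.0112).

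**Figure D3:**
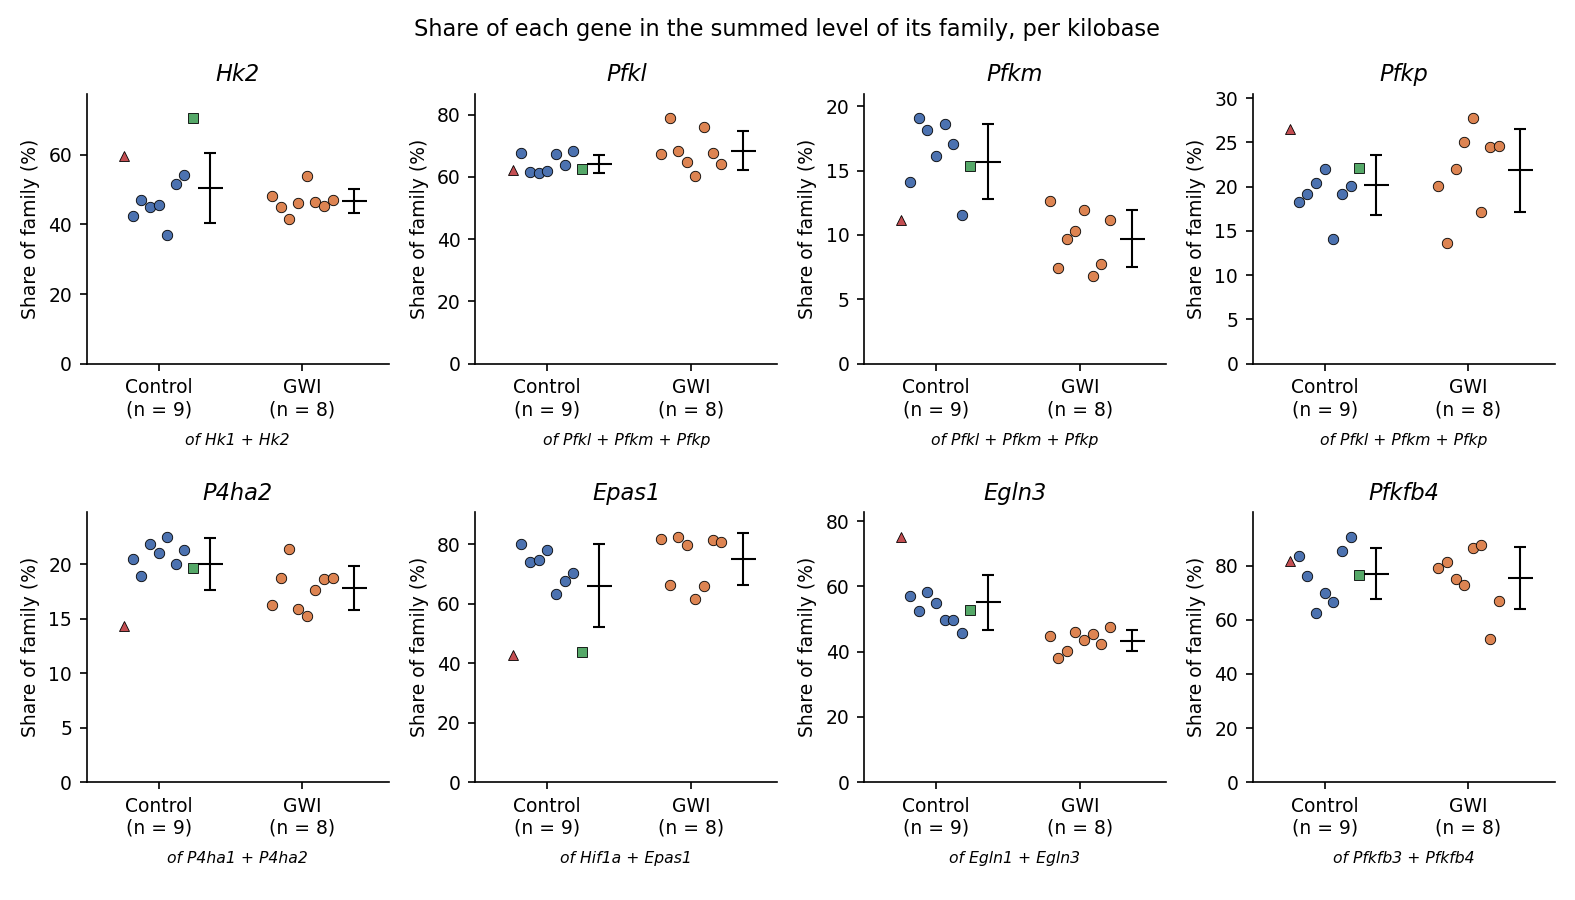
Share of 1 gene in the summed level of its family in each of the 17 mice, in percent per kilobase of exon on linear axes from 0, with Control replicate 1 as a triangle, Control replicate 9 as a square and bars for the mean ± SD. Egln3 and Pfkm are the shares that passed, at means of 55.1% and 15.7% in Control and 43.4% and 9.72% in GWI mice.

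Markers of the tissue layers were counted beside these results. Of 10 smooth muscle markers 7 were called lower in GWI colons (13.5% of all tested genes were), and their summed level was between 3690 and 23923 CPM in Control (median 11584) and between 3658 and 11832 CPM in GWI mice (median 5142), with Myh11 as the most abundant gene. Of 12 colon epithelium markers 5 were called higher (13.4% of all tested genes were), with summed levels of 28292 to 46068 CPM in Control and 32872 to 50717 CPM in GWI mice. Car1 had the highest mean of these markers in Control. None of these markers was at 0 in all mice. Their calls by edgeR take the mice as independent, and marker calls with the random block are not given here. The mean log2 level of the muscle markers minus that of the epithelium markers was between -2.11 and 0.38 in Control and between -2.68 and -1.17 in GWI mice, and Control replicates 7, 8 and 9 lay within the GWI range. In bulk tissue, fewer cells of a type and less RNA per cell cannot be told apart.

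With this difference as a covariate, 9 members were called higher, against 15.0% of all tested genes, and 2 lower, of which 1 was Pdk1 and the other Ankrd37, against 16.8% of all tested genes. Egln3 was no longer called (log2 fold change -0.29, SE 0.379, adjusted p = 0.577), nor was Bnip3 (-0.42, SE 0.211, adjusted p = 0.131). Epas1 (0.72, adjusted p = 0.00754) and Arnt (0.25, adjusted p = 0.0372) were. Hk1 reached 1.25 (SE 0.357, adjusted p = 0.0141) and P4ha1 0.56 (SE 0.165, adjusted p = 0.0152), and Bhlhe40, Gpi1, Pfkl, Pfkp and Eno1 were the others called higher. Pfkm turned from -0.38 to 0.30 (SE 0.156, adjusted p = 0.143). The covariate and the groups overlap in part, and its part in the results was not tested.

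Of 95 further genes of the pathway, in lists of HIF machinery, HIF targets, glycolysis, pyruvate and lactate handling, vessel growth signals and paralogs of the members, 88 were tested, of which 8 were called higher and 14 lower (25.0%, against 26.8% of all tested genes). The limma-voom fit with the random block called 1 higher and 1 lower. Their median log2 fold change was -0.16. In the HIF machinery 2 of 12 were called higher, the coactivator Ep300 (0.32, SE 0.0958, adjusted p = 0.0198) and Siah2, a ligase that targets prolyl hydroxylases (0.38, SE 0.110, adjusted p = 0.0188), and 2 lower, Rbx1 (-0.34, adjusted p = 0.0107) and Eloc (-0.48, adjusted p = 0.0110), both parts of the ligase complex that degrades the alpha subunits. Among 23 other HIF targets 3 were called higher, Car12 (0.67, adjusted p = 0.00480), Cited2 (0.37, adjusted p = 0.0394) and Car9 (0.41, adjusted p = 0.0403), and 3 lower, Bnip3l (-0.35, adjusted p = 0.0329), Hilpda (-0.68, adjusted p = 0.0345) and Gbe1 (-0.43, adjusted p = 0.0356). Bnip3l is the closest relative of Bnip3, and 6 of the 8 GWI mice were below all Control mice for it.

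Of 16 further glycolysis genes, Pklr, the pyruvate kinase of liver and red cells, was called higher (0.79, SE 0.103, adjusted p = 0.000274), with all 8 GWI mice above all Control mice. Pfkfb2 was also called higher (0.62, adjusted p = 0.0240), and the heart-type lactate dehydrogenase Ldhb (-0.83, adjusted p = 0.00441) and the insulin-responsive glucose transporter Slc2a4 (-0.82, adjusted p = 0.0212) lower. Of 16 genes for pyruvate and lactate, Pdk4, a paralog of Pdk1, was called higher (1.33, SE 0.309, adjusted p = 0.00615) and the pyruvate carrier Mpc1 lower (-0.57, adjusted p = 0.0198). All 12 tested genes of the vessel growth list had negative values (7806 of all 14146 tested genes did), and 5 were called lower (13.5% of all tested genes were), with Calcrl (-0.63, adjusted p = 0.00632), Ramp3 (-0.77, adjusted p = 0.0216) and Vegfb (-0.42, adjusted p = 0.0225) at the smallest p. At most 1 of these 5 was called lower in the limma-voom fit with the random block, which called 1 of all 88 genes lower. Calcrl and Ramp3 form a receptor for adrenomedullin, and 4 of 8 endothelium markers were also called lower. In a list of 9 paralogs that stand in none of the other lists, 1 was called, Bhlhe41 (-1.20, SE 0.216, adjusted p = 0.00145), a paralog of Bhlhe40 and a repressor of the circadian clock. Of 15 clock genes edgeR called 3 higher and 7 lower, against 13.4% and 13.5% of all tested genes. Those higher were Arntl (1.72, adjusted p = 0.000639), Npas2 (1.58, adjusted p = 0.000750) and Nfil3 (1.35, adjusted p = 0.00151). Among those lower, Hlf (-1.61, adjusted p = 0.000588), Ciart (-1.14, adjusted p = 0.000787) and Dbp (-1.12, adjusted p = 0.000947) had the smallest p. These p-values take the mice as independent, and clock gene values with the random block are not given here. With that block, limma-voom called 2.66% of all tested genes higher and 0.664% lower.

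Promoter windows were taken from RefSeq (build GRCm38.p6), from 250 bases before to 50 bases after a transcription start. A window was matched for 30 of the 33 members, and not for Bhlhe40, Ndrg1 and Epas1. The core of the HIF binding motif was searched as ACGTG or GCGTG on both strands (CACGT or CACGC on the printed strand), and ACGTG overlaps with the E-box CACGTG of other factors. It was present in a window of 28 of these 30 members (93.3%), and in 46.7% of all 27025 genes with a window. ACGTG alone was present in 21 of 30 (70.0%) and in 21.8% of all genes. A match is a description of the letters only. The windows of Ankrd37, Bnip3, Egln3 and Arnt are shown, for the gene that chose the members and for the called members with a window, 5′ to 3′ on the strand of the gene and with the motif in capitals. They lie at chr8:45999801-46000100 (minus strand, 4 copies), chr7:138909457-138909756 (minus strand, 5 copies, 2 of them in a single CACGTG, which is read on both strands), chr12:54203825-54204124 (minus strand, 1 copy) and chr3:95434140-95434439 (plus strand, 1 copy).
Ankrd37: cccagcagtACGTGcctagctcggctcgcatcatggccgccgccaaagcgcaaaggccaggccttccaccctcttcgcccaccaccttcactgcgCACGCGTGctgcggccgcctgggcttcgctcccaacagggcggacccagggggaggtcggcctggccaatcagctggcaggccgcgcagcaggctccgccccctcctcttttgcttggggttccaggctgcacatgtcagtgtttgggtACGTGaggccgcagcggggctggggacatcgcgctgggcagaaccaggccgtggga
Bnip3: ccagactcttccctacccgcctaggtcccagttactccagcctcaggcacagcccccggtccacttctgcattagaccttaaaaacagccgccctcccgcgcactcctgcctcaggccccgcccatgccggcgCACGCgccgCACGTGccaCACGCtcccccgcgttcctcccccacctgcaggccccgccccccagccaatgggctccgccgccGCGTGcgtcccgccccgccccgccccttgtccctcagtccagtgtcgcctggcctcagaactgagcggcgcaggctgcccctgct
Egln3: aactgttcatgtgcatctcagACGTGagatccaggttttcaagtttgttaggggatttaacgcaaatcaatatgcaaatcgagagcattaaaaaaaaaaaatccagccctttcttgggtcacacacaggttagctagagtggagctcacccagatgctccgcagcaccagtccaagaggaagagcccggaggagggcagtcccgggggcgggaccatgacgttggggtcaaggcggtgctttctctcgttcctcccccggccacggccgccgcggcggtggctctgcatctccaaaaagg
Arnt: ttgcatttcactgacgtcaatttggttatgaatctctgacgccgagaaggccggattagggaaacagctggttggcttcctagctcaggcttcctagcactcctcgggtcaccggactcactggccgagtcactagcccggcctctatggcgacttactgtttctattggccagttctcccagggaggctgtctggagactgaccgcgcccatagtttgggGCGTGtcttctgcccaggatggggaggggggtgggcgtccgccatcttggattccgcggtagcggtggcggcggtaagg
Ldha, with a log2 fold change of 0.01, had 7 copies in 1 of its windows.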

How the data were processed

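The libraries of 17 mouse colons (9 Control, 8 GWI) were poly(A)-selected and read from both ends. The authors used Trimmomatic 0.36 for trimming, STAR 2.5.2b for mapping to GRCm38 and featureCounts for uniquely assigned reads, and deposited raw counts. The annotation release and strand setting are not given in the sources used here. After filterByExpr and TMM scaling, the robust quasi-likelihood test of edgeR 4.0.16 in R 4.3.3 compared the groups with no covariate, and p-values were adjusted over 14146 genes. Each SE is the absolute log2 fold change over the root of F. The fit was tried on simulated counts. Exon lengths and overlaps came from GENCODE M21. Alternatives used DESeq2 1.42.0, limma 3.58.1, other scalings, filters and designs, and each mouse left out. The members and lists were chosen with earlier results of these data known. Values are given for Ankrd37, its exon neighbours, members with an adjusted p under 0.05, Hif1a, Epas1, Arnt, Gapdh and the isoenzyme families, and for each other list up to 3 called genes per direction with the smallest p-values. Members named beyond these were chosen after their values were seen.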

Additional observations from a re-analysis of the deposited data

Results flagged for a closer look

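The 66 groups of levels examined were 9 Control or 8 GWI mice for each of 33 members. In 20 of them the highest mouse lay far from its group by Dixon's test. For normally distributed values chance alone gives about 1 in 20 groups. The test was run on CPM without a log scale, so this rate may not hold here. The groups are not independent, since members share their libraries. Control replicate 1 was the mouse that stood apart for 14 members, each time as the highest, with levels in CPM of Hif1a (229), Egln3 (251), Vegfa (123), Ndrg1 (908), Adm (12.6), P4ha1 (45.9), Slc2a1 (445), Pfkfb4 (66.4), Hk1 (398), Hk2 (413), Pfkp (337), Tpi1 (785), Pgk1 (570), Ldha (2430). The cause was not tested.

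Epas1 was at 192 CPM in GWI replicate 7, and the next mouse of that group was at 155 CPM. Adm was at 8.77 CPM in GWI replicate 5, and the next mouse of that group was at 4.42 CPM. Pdk1 was at 122 CPM in Control replicate 9, and the next mouse of that group was at 89.1 CPM. Pfkfb3 was at 48.8 CPM in GWI replicate 7, and the next mouse of that group was at 24.8 CPM. Pfkfb4 was at 61.2 CPM in GWI replicate 5, and the next mouse of that group was at 41.8 CPM. Hk2 was at 249 CPM in GWI replicate 5, and the next mouse of that group was at 166 CPM.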

How the results depend on the processing

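With all 17 mice, 1889 genes were called higher and 1903 lower, with 2 and 3 of the members and 8 and 14 of the other hypoxia and glycolysis genes among them. Epas1, Arnt, Egln3 and Bnip3 kept their direction in every alternative run, and were not called in 1, 5, 3 and 2 of the 29. The cause was not tested for any of the values below.

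Upper-quartile factors gave 1214 higher and 2992 lower, 1 member higher, and 4 and 23 of the other genes. They moved the median log2 fold change of all genes from -0.06 to -0.15. Library size alone and no filter each gave 1 member higher. The limma-voom fit with sample quality weights gave 3911 and 4180, 10 and 6 members, and 19 and 32 other genes. The limma-voom fit with the random block gave 376 and 94, 0 members higher, and 1 and 1 other genes. Both fits change the tool along with the weights or the block, so the moves cannot be put down to either. The tissue covariate gave 9 members higher. Leaving out both Control replicates 1 and 9, chosen after seeing the data, gave 12 members and 17 other genes higher. A joint limit of an absolute log2 fold change over 1 gave 76 and 217, 0 members higher, and 1 and 2 other genes. An adjusted p under 0.01 gave 833 and 528, 0 and 1 members, and 3 and 3 other genes, where fewer calls follow from the stricter limits.

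With the replicate block, which pairs Control and GWI mice of the same number and so uses 16 mice without Control replicate 9, 814 genes, 1 member and 9 other genes were called lower, Egln3 and Bnip3 were not called (adjusted p = 0.0666 and 0.0728), and the log2 fold changes of Hif1a and Adm turned to 0.0545 and 0.0054. Deviations of levels from the group mean had correlations from -0.506 to 0.115 in the 8 pairs, so no pairing by number was seen in them. This check cannot show that the mice were not paired, and the labels do not state a pairing.

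Leaving out each mouse in turn gave 1472 to 2523 genes higher and 1309 to 2295 lower, 1 to 11 members higher and 3 to 4 lower, and 5 to 14 other genes higher and 9 to 17 lower. The log2 fold change ran from -0.47 to 0.24 for Hif1a, -0.12 to 0.13 for Ndrg1, -0.42 to 0.36 for Adm, -0.11 to 0.17 for P4ha1, -0.0181 to 0.21 for Pkm and -0.0415 to 0.19 for Ldha. The share differences ran from 2.84 to 5.50 points for Pfkl, -2.91 to -1.84 for P4ha2 and -3.58 to 1.44 for Pfkfb4. Pfkl passed without GWI replicate 5 (adjusted p = 0.0462), and Pfkfb4 turned sign without GWI replicate 7.

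Other log2 fold changes turned sign. With the tissue covariate they were 0.0879 for Hif1a, 0.15 for Egln1, 0.28 for Ndrg1, 0.99 for Adm, 0.56 for P4ha1, 0.27 for P4ha2 and 0.30 for Pfkm. In the limma-voom fit with quality weights they were 0.29 for Hif1a, 0.0415 for Pdk1, -0.0770 for Aldoa, -0.0190 for Gapdh and -0.0704 for Pkm. With both Control mice left out they were 0.38 for Hif1a, 0.0770 for Ndrg1, 0.28 for Adm and 0.0935 for P4ha1. Ndrg1 was at 0.0109 in the limma-voom fit with the random block. With upper-quartile factors Pkm was at -0.0207 and Ldha at -0.0806, and Ldha was at -0.0043 with library size alone and -0.0029 with at least 10 counts in every mouse. Depth limits Adm most, with 25 to 199 counts per mouse.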

Other observations

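Other markers were counted in the same way, beside 13.4% of all tested genes called higher and 13.5% lower. Of 8 endothelium markers 4 were called lower and 0 higher, with summed levels between 47.7 and 170 CPM in Control and between 48.1 and 100 CPM in GWI mice. Of 6 adipocyte markers 1, Cidec, was called higher (log2 fold change 0.99, SE 0.334, adjusted p = 0.0365 in edgeR's test). All 6 had positive values, with a median log2 fold change of 1.03. GWI replicate 7 had the highest adipocyte sum (590 CPM). It also had the highest Pfkfb3, Epas1 and Bhlhe40 levels of the 17 mice. Of 4 tested skeletal muscle markers 1, Ckm, was called lower. Of 3 tested small intestine markers Alpi was called higher and Fabp6 lower, and Fabp6 reached 314 CPM in Control replicate 7 and 119 CPM in Control replicate 6 while its Control median was 5.98 CPM. Of 5 blood, 5 leukocyte and 6 enteric neuron markers tested, 0 were called by edgeR. Negative values were found for 4, 4 and 6 of them, and for 7806 of all 14146 tested genes. Their median log2 fold changes were -0.31 for blood, -0.25 for leukocytes and -0.58 for enteric neurons. Of the exocrine pancreas markers, 0 passed the filter. The part of these markers in the members' values was not tested.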
